A study of Mus musculus with 178 samples.

Results

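The immunoglobulin heavy variable (Ighv) genes were followed in the whole blood of mice with oral tumors while they received anti-PD-1. Every row of the deposited count table whose symbol begins with Ighv was taken, which gave 185 of 55450 rows. Blood was drawn from 45 C57BL/6 mice, 6 to 8 weeks old and of both sexes, that carried 4MOSC1 cells, a line from a carcinogen-induced oral squamous carcinoma, in the mouth. All of the mice were given anti-PD-1 (clone RMP1-14) every 3 days, so there was no untreated group. Day 4 is the sample before treatment and Days 9, 17 and 24 are samples during treatment. There were 178 libraries. Responders gave 15 on Days 4, 9 and 24 and 14 on Day 17, and non-responders gave 29 on Day 4 and 30 on the later days. Response is a label given to each mouse, and the 2 groups do not differ in treatment. Responders are called R1 to R15 and non-responders NR1 to NR30, numbered by ear tag. The tags fall into a 3-digit series with 4 responders and 23 non-responders and a 4-digit series with 11 responders and 7 non-responders, so series and response overlap. The Day 17 library of NR24 is labelled as a responder, whereas its other 3 libraries are labelled as non-responder, and it was counted with the non-responders.

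A B cell builds its antibody heavy chain by joining 1 variable (V) segment to a diversity and a joining segment. The rearranged gene is transcribed with the V segment at the 5′ end of the mRNA and the constant gene, which sets the isotype, at the 3′ end. Naive B cells carry mRNA of the Ighm and Ighd isotypes, plasma cells carry far more immunoglobulin mRNA per cell, and a clone that expands carries its single V segment with it. In bulk blood, fewer B cells and less immunoglobulin RNA per B cell cannot be told apart. A count table by V gene also does not separate clones that use the same V segment.

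The 4 members that led most libraries by count were Ighv1-64 (first in 86 libraries), Ighv1-72 (45), Ighv1-26 (31) and Ighv1-82 (11). Their last 294 transcript bases, from the first framework codon to the end of the segment, are shown because these genes lead most libraries and because they bear on how reads were divided between members. Each is read 5′ to 3′ from the GENCODE M21 transcripts of GRCm38, minus strand of chromosome 12, and capitals mark the 61 positions at which the 4 are not all alike. They lie at chr12:115507545-115507838, chr12:115757984-115758277, chr12:114788372-114788665 and chr12:115952538-115952831, in the order given.
Ighv1-64: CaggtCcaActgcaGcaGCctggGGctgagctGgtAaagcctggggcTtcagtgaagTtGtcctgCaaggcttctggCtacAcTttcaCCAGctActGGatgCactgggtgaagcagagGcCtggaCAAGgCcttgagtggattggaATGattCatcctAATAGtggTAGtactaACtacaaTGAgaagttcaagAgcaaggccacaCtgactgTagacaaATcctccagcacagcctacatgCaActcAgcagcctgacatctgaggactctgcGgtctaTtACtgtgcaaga
Ighv1-72: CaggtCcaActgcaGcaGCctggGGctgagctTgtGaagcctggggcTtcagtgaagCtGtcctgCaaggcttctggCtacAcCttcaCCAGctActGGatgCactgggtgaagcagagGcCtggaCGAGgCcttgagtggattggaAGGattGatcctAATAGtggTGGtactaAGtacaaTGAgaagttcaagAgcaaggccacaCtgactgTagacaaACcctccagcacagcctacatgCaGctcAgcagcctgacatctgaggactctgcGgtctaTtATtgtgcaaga
Ighv1-26: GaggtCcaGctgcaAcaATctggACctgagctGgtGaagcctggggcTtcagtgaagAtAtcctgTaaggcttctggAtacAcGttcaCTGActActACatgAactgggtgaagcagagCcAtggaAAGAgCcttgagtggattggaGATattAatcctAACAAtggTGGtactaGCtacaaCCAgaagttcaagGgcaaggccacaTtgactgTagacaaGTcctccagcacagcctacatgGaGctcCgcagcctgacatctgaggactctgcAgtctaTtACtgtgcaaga
Ighv1-82: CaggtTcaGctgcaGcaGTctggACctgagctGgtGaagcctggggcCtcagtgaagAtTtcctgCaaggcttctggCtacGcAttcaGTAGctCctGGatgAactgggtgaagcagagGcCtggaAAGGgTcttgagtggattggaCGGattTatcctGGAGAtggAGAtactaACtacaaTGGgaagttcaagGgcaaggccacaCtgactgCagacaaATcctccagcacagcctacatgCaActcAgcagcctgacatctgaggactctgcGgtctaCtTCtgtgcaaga
Ighv1-64 and Ighv1-72 differed at 12 of the 294 positions (95.9% identity), and their longest run in common was 45 bases. Ighv1-26 was the most distant, with 85.4% identity to Ighv1-72 and to Ighv1-82. Among 143 members with counts and with at least 294 transcript bases, the longest run shared with another member had a median of 74 bases, and it reached 100 bases or more in 31 members. Ighv1-62-2 and Ighv1-71 were identical over all 294 bases, and Ighv1-72 shared 220 bases in a row with Ighv1-62-3. Counts of such pairs are uncertain, since reads inside a shared run cannot be assigned to either gene by sequence. The pairs were of unequal level, with 11854 counts of Ighv1-72 against 179 of Ighv1-62-3, and 1270 of Ighv1-62-2 against 604 of Ighv1-71.

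All members lie on chromosome 12 between positions 113572927 and 116010093 (GRCm38), and all but 2 on the minus strand. The annotation gives 113 as V genes, 70 as V pseudogenes and 2 as IG_LV genes. Counts were present for 144 members and absent in every library for 41. The 41 were 35 of the 70 pseudogenes, both IG_LV genes and 4 of the 113 V genes, namely Ighv1-16, Ighv1-24, Ighv1-62-1 and Ighv7-2. Another 22 members had between 1 and 9 counts over all 178 libraries. Pseudogenes held 0.545% of the 235576 Ighv counts. There were 12 members detected (at least 1 count) in every library, a number set by the library with the fewest Ighv counts (31, NR29 on Day 24), since 34 were detected in all of the others. In all, 93 were detected in more than 89 libraries. The 10 members with the most counts held 36.3% of all Ighv counts.

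By family, the number after Ighv in the symbol, family 1 held 61.0% of the Ighv counts and had 93 of the members. Family 5 (near the diversity segments) followed with 9.04%, family 2 with 5.49%, family 8 with 5.04%, family 14 with 4.03%, family 9 with 3.90% and family 3 with 3.34%. Family 1 made up 46.9% of the V genes and family 5 made up 8.85%, so the share of counts was above the share of V genes in family 1 and close to it in family 5. The median share of family 1 in a library lay between 59.9% (responders, Day 17) and 62.3% (non-responders, Day 24), and that of family 5 between 8.71% and 9.18%. Members nearer to the constant genes than the middle of the locus held 53.0% of the counts, and between 51.5% and 54.6% in the 8 groups. They were 108 of the 185 members and 80 of the 144 with counts.

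**Figure D1:**
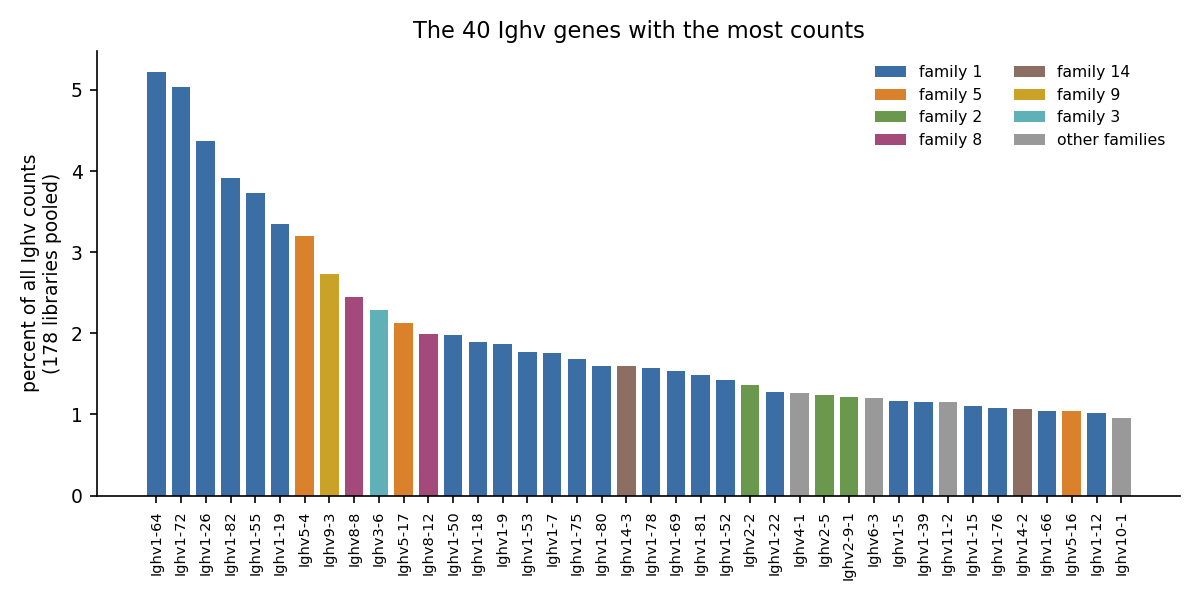
Percent of all Ighv counts (178 libraries pooled) on the y axis for the 40 members with the most counts, colored by family. Ighv1-64, Ighv1-72 and Ighv1-26 lead with 5.22%, 5.03% and 4.38%, and most of the leading bars belong to family 1.

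Compared per length, in TPM averaged over all libraries, Ighv1-26 was the highest member (5.19 TPM), followed by Ighv1-72 (4.18), Ighv1-64 (4.07), Ighv1-82 (3.54), Ighv9-3 (3.28), Ighv3-6 (2.75), Ighv8-8 (2.74), Ighv1-55 (2.71), Ighv1-19 (2.62) and Ighv1-18 (2.27). These 10 members were taken as the leading members by their mean TPM. The leading gene of a library took a median of 5.63% of its Ighv counts, with a range of 4.03% to 18.6%. Single members rest on few counts: the group medians of Ighv1-26 lay between 36 counts (responders, Day 9) and 79 counts (non-responders, Day 4).

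Facts of the libraries bear on every level. Total counts ranged from 26058965 to 82208666 per library, of which haemoglobin genes took 68.7% to 88.0%. Counts outside haemoglobin genes ranged from 4535338 to 22174669, and Ighv counts from 31 to 4003 with a median of 1181. The library with 31 Ighv counts, that of NR29 on Day 24, stood apart, with an Ighv level of 5.21 CPM (counts per 1000000 counts outside haemoglobin genes) against 180 in the same mouse on Day 4. In the same library the 10 mature B cell markers summed to 146 CPM against 4007 on Day 4, the 6 T cell markers to 40.0, and the red cell markers to 165315, the highest of all libraries. Over all libraries the mature B cell markers summed to 146 to 5699 CPM with a median of 3326, so RNA of B cells was present in each. Results of Day 24 are given with and without this library where it changes a call. Replicates are separate mice.

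The summed level of the family was below Day 4 on each later day in non-responders and on Day 9 in responders. It is given in CPM, on the same scale. In non-responders it ran from 106 to 231 with a median of 172 on Day 4, from 71.6 to 167 with a median of 115 on Day 9, from 60.2 to 252 with a median of 118 on Day 17, and from 5.21 to 228 with a median of 124 on Day 24. In responders it ran from 66.0 to 203 with a median of 144 on Day 4, from 49.9 to 181 with a median of 92.4 on Day 9, from 59.4 to 240 with a median of 118 on Day 17, and from 67.4 to 163 with a median of 119 on Day 24. The days overlapped in both groups, and Day 4 had the highest median in both. The 3 comparisons of each group share its Day 4 libraries.

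In non-responders the mean log2 level was 7.39 ± 0.27 (SD, n = 29) on Day 4 and 6.82 ± 0.30 (n = 30) on Day 9, a 0.67-fold level (adjusted p = 0.000195 by permutation, which rests on the smallest p that 100000 resamples can give, 1e-05). The level was higher on Day 9 than on Day 4 in 2 of 29 mice with both libraries. It remained below Day 4 on Day 17 (0.709-fold, adjusted p = 0.00026 by permutation, higher in 6 of 29 mice) and on Day 24 (0.667-fold, adjusted p = 0.000195 by permutation, higher in 6 of 29 mice). The Day 24 value includes the library of NR29, and the SD of the log2 level on that day was 0.89. Without mouse NR29 the log2 change on Day 24 was -0.43 instead of -0.58, and it was still called. In responders the mean log2 level was 7.08 ± 0.44 (n = 15) on Day 4 and 6.53 ± 0.45 (n = 15) on Day 9, a 0.683-fold level (adjusted p = 0.0166 by permutation, higher in 4 of 15 mice). This call was lost relative to all counts, haemoglobin included (log2 change -0.51, adjusted p = 0.138 by permutation), and in summed TPM (-0.52, adjusted p = 0.138). On the scale outside haemoglobin genes the later days of responders did not pass the test. Day 17 stood at 0.855-fold of Day 4 (adjusted p = 0.392 by permutation, higher in 3 of 14 mice) and Day 24 at 0.873-fold (adjusted p = 0.314, higher in 4 of 15 mice). With TMM-scaled library sizes both were called, with log2 changes of -0.35 on Day 17 and -0.29 on Day 24 (adjusted p = 0.0445 and 0.00218 by permutation). With the mouse as a block, the same calls were reached for these 6 comparisons. On the scale outside haemoglobin genes the change from Day 4 was not shown to differ between responders and non-responders, since the log2 differences of the changes were 0.03 on Day 9, 0.19 on Day 17 and 0.40 on Day 24 with adjusted p of 0.923, 0.426 and 0.227 by permutation. Without the Day 24 library of NR29 the last of these was 0.24 (adjusted p = 0.169 by permutation). In summed TPM the difference of the changes on Day 24 was 0.88 and was called (adjusted p = 0.0409 by permutation). That value includes the library of NR29, which was not left out on this scale. The lowest summed TPM of non-responders on Day 24 was 2.54, against a median of 98.5. Test values are adjusted over 39 permutation tests of the summed level, the number of genes detected and the evenness.

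**Figure D2:**
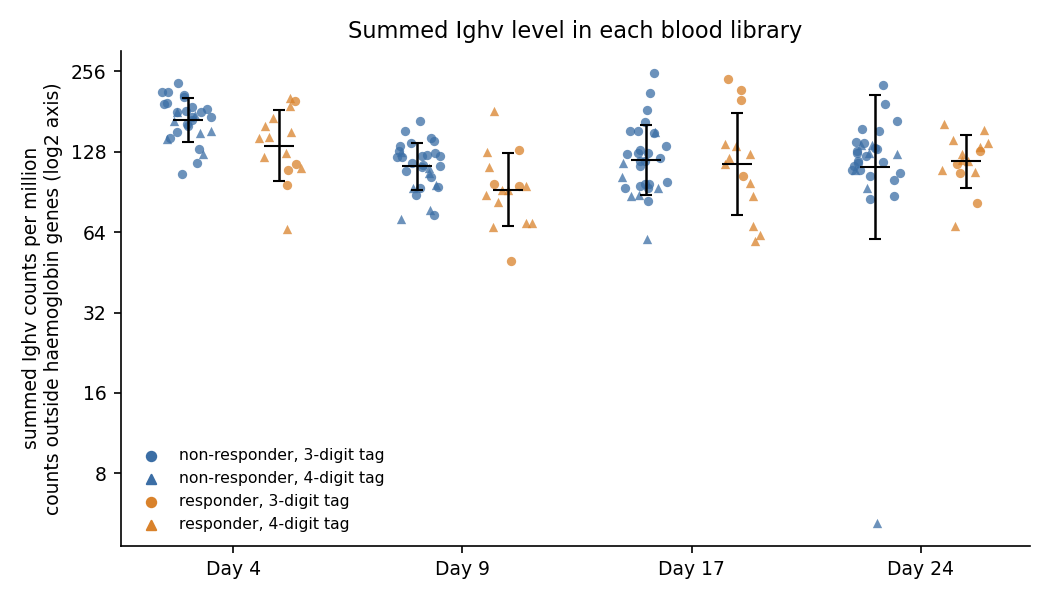
Each point is 1 library, with the summed Ighv CPM on a log2 axis and the day on the x axis. Circles are mice of the 3-digit and triangles of the 4-digit tag series, and black bars give the mean and SD of the log2 values. Day 4 is the highest day in both groups, and the isolated point on Day 24 is NR29 at 5.21.

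On Day 4, before treatment, and on Day 9 responders had a lower Ighv level than non-responders on the scale outside haemoglobin genes. The level was 0.802-fold that of non-responders on Day 4 (log2 difference -0.32, adjusted p = 0.0221 by permutation) and 0.818-fold on Day 9 (log2 difference -0.29, adjusted p = 0.0409 by permutation). On Day 17 it was 0.968-fold (adjusted p = 0.919 by permutation) and on Day 24 1.05-fold (adjusted p = 0.923 by permutation). The direction on Day 24 rested on the library of NR29, without which the log2 difference was -0.08 (adjusted p = 0.548 by permutation). The groups overlapped on every day. Leaving out 1 mouse repeats the adjustment over all tests, so a call can also be lost through the other tests. The call of Day 4 was lost without R8 (log2 difference -0.24, adjusted p = 0.055 by permutation), but not with the other tests held as over all mice. The call of Day 9 was lost without any one of 18 mice, with adjusted p up to 0.118 by permutation without R3 (-0.23), and without any one of 13 with the other tests held. Both early differences depended on what the level was taken relative to. With TMM-scaled library sizes, responders were higher by 0.07 on Day 4 and 0.08 on Day 9 on the log2 scale (adjusted p = 0.557 and 0.465 by permutation). Relative to the summed counts of the heavy constant genes, responders were higher by 0.12 on Day 4 (adjusted p = 0.0443 by permutation) and by 0.17 on Day 9 (adjusted p = 0.00686 by permutation).

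Markers of other blood cells moved with the same comparison. Of the red cell markers, 3 of 4 were measured with enough counts to be tested (Ahsp had no row in the table). All 3 were higher in responders on Day 4 and on Day 9 in edgeR's test, beside 4.21% and 3.65% of all genes called. The median log2 differences of the 3 markers were 1.23 and 1.05. Their summed level ran from 40173 to 120818 CPM in responders and from 30706 to 89141 in non-responders on Day 4. On Day 9 it ran from 58275 to 110906 and from 34749 to 92589. None of the 10 mature B cell markers was called between the groups on any day. This is near the share of all genes called, which was 0.264% on Day 17 and 0.297% on Day 24. The mature B cell markers summed to medians of 3082 CPM in responders and 4082 in non-responders on Day 4, and of 2484 and 3282 on Day 9. The part of the red cell RNA in the lower Ighv level was not tested.

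Within the tag series the early difference did not pass the test. Among 3-digit mice the 4 responders had 0.72-fold the level of the 22 non-responders on Day 4 (exact permutation p = 0.0103, adjusted p = 0.0721 over 21 tests) and 0.743-fold of 23 on Day 9 (exact permutation p = 0.0269, adjusted p = 0.0794). Among 4-digit mice the fold was 0.897 on Day 4 (exact permutation p = 0.426, n = 11 and 7) and 0.976 on Day 9 (exact permutation p = 0.852). With the response permuted within series, the log2 differences were -0.30 on Day 4 (adjusted p = 0.0602 by permutation) and -0.21 on Day 9 (adjusted p = 0.20).

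On Day 17 the responders of the 2 series lay at different levels. R1 had 115 Ighv CPM on Day 4 and 217 on Day 17, R2 had 95.8 and 240, R3 had 109 and 104, and R4 had 198 and 200. By Day 24 these 4 mice were at 82.3, 115, 106 and 129. Counts outside haemoglobin genes on Day 17 were 4535338 in R1, the lowest of all libraries, 5331137 in R2, 9979863 in R3 and 12549615 in R4. The 10 responders with 4-digit tags lay between 59.4 and 137 on Day 17, and R1, R2 and R4 were above all of them. Non-responders on Day 17 ran from 83.8 to 252 with a median of 126 in the 3-digit series. In the 4-digit series they ran from 60.2 to 152 with a median of 93.9. Among 3-digit mice the mean change from Day 4 to Day 17 was higher in responders than in the 22 non-responders by 0.98 on the log2 scale (exact permutation p = 0.00261, adjusted p = 0.0274 over 21 tests). Among 4-digit mice the same difference was 0.04 (exact permutation p = 0.841).

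Tested gene by gene in edgeR (quasi-likelihood F test, p adjusted over all genes), the fall after Day 4 was shared by many members. In non-responders 59 members had enough counts to be tested, and on Day 9 all 59 had fold changes below 1. Of these, 54 were called lower and none higher (adjusted p of at most 0.05), beside 50.8% of all genes called and 27.5% called lower. The 5 members not called were Ighv1-61, Ighv1-77, Ighv1-85, Ighv2-9 and Ighv7-3. On Day 17, 32 of 59 were called, all lower, beside 46.1% of all genes called and 24.2% called lower. On Day 24, 31 of 59 were called, all lower, beside 48.7% called and 24.8% called lower. The shares of members called, 54.2% on Day 17 and 52.5% on Day 24, were near those of all genes called. The median log2 change of the members tested was -0.55, -0.35 and -0.35 on the 3 days, and that of all genes tested lay between -0.01 and 0.01. Of the 54 members called on any day, 25 were called on all 3 days.

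In responders 50 members could be tested. On Day 9, 20 of 50 were called, all lower, beside 27.7% of all genes called and 14.2% called lower. On Day 17, 10 of 50 were called, all lower, beside 25.6% called and 13.4% called lower, so the share of members called (20%) was not above that of all genes called. On Day 24, 8 of 50 were called, all lower, beside 17.4% called and 9.94% called lower, a share of called members (16.0%) close to the background. The median log2 change of the members tested was -0.51, -0.27 and -0.25. Of the 23 members called on any day, 3 were called on all 3 days. The responders are fewer, and the difference in change between the response groups was not tested gene by gene. With 1.5-fold also required, 21, 5 and 1 of 59 members were called in non-responders on Days 9, 17 and 24, all lower. Of all genes, 9.89%, 4.96% and 6.03% were then called and 1.61%, 0.592% and 2.08% called lower, so the count of Day 24 was near the background. In responders 10, 6 and 4 of 50 members were called by this rule, all lower, beside 7.06%, 4.5% and 3.15% of all genes called and 1.6%, 0.876% and 1.85% called lower.

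The members with the smallest p show sizes. Ighv1-82 stood at 0.664-fold on Day 9 (log2 change -0.59, SE 0.08, edgeR adjusted p = 6.14e-10), at 0.746-fold on Day 17 (adjusted p = 8.57e-06) and at 0.765-fold on Day 24 (adjusted p = 5.03e-05) of non-responders. Ighv1-50 fell to 0.615-fold on Day 9 of non-responders (edgeR adjusted p = 6.95e-09) and 0.601-fold in responders (adjusted p = 0.00134), and to 0.58-fold on Day 17 of responders. Ighv5-4, the leading gene of family 5, fell to 0.654-fold on Day 9 of non-responders and to 0.574-fold in responders (edgeR adjusted p = 8.11e-09 and 3.85e-05). On Day 17 of non-responders Ighv1-12 fell to 0.578-fold (edgeR adjusted p = 9.01e-06), and on Day 24 Ighv1-19 fell to 0.714-fold (adjusted p = 1.5e-05). In responders Ighv8-12 fell to 0.60-fold on Day 9 and 0.61-fold on Day 17, and Ighv1-7 to 0.563-fold on Day 17 and 0.623-fold on Day 24. Ighv14-4 and Ighv14-2 fell to 0.588-fold and 0.604-fold on Day 24 of responders (edgeR adjusted p = 0.0194 and 0.022).

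Among the 4 leading genes, Ighv1-64 fell to 0.735-fold on Day 9 in non-responders and 0.743-fold in responders (edgeR adjusted p = 9.52e-06 and 0.005). On Day 24 of responders its fold was 1.06 (edgeR adjusted p = 0.648). Ighv1-72 fell to 0.637-fold on Day 9 of non-responders (edgeR adjusted p = 1.27e-08) and was at 0.797-fold in responders (adjusted p = 0.167). The responder value includes R7, where this gene took 18.6% of the Ighv counts on Day 9, against 3.11% to 6.23% in the other responders. Ighv1-26 fell to 0.679-fold and 0.719-fold on Day 9 (edgeR adjusted p = 1.25e-05 and 0.0204).

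**Figure D3:**
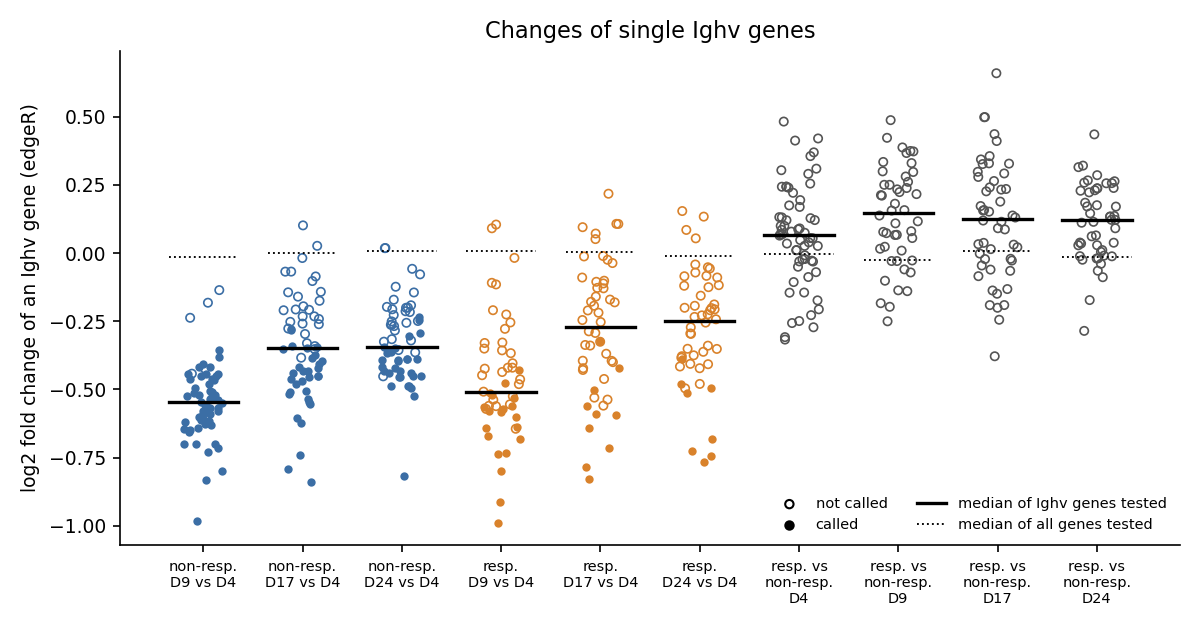
Log2 fold change of each Ighv gene tested (edgeR) in the 6 comparisons of a later day with Day 4 and the 4 comparisons of responders with non-responders. Filled points are called, solid lines are medians of the Ighv genes tested and dotted lines medians of all genes tested. The medians of the Ighv genes lie at -0.55 and -0.51 on Day 9, and no point is filled in the 4 comparisons of response.

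Between responders and non-responders no member was called on any day in edgeR or in DESeq2, where a call needed 1.5-fold and an adjusted p up to 0.05. The background was 4.21% of all genes called on Day 4, 3.65% on Day 9, 0.264% on Day 17 and 0.297% on Day 24. Of 61, 46, 50 and 48 members tested by edgeR on these days, 6, 6, 4 and 5 had an unadjusted p under 0.05 (7, 7, 4 and 5 in DESeq2). Of all genes 20.7%, 25.1%, 20.6% and 24.3% had such a p in edgeR, a larger share than of the members on each day. In edgeR, which scales by TMM, 20, 11, 16 and 11 of the members tested were lower in responders on these days. The median log2 differences of the members were 0.07, 0.15, 0.12 and 0.12, and those of all genes lay between -0.02 and 0.01. By adjusted p alone, 1 of 48 members was called on Day 24, beside 8.55% of all genes. It was Ighv1-64, which was higher in responders (1.25-fold, edgeR adjusted p = 0.0197). Its use on that day ran from 4.16% to 7.80% of Ighv counts in responders with a median of 6.55%, and from 3.23% to 6.91% with a median of 5.52% in non-responders, where the lowest value is 1 of 31 counts in the library of NR29. Ighv11-2, a segment known from B-1 cells, was at 1.58-fold on Day 17 (edgeR adjusted p = 0.0947), which did not pass. Both genes were singled out after their values had been seen.

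The number of members detected followed the number of Ighv counts. In the fourth of the libraries with the fewest Ighv counts (31 to 892) a median of 82 members was detected, and in the fourth with the most (1631 to 4003) a median of 98. In non-responders the number was 97 ± 6.55 (SD, n = 29) on Day 4, 92.5 ± 6.63 on Day 9, 92.1 ± 6.29 on Day 17 and 90.9 ± 14.7 on Day 24 (n = 30 each). In responders it was 89.9 ± 8.29 on Day 4, 82.6 ± 10.7 on Day 9 (n = 15 each), 89.4 ± 8.24 on Day 17 (n = 14) and 89.7 ± 5.61 on Day 24 (n = 15). Responders had fewer on Day 4 and Day 9 (adjusted p = 0.0221 and 0.00468 by permutation). The call of Day 4 was also lost without R8 (-5.93 members, adjusted p = 0.0509 by permutation), but not with the other tests held. Both calls were lost with the response permuted within tag series (-6.87 and -7.80 members, adjusted p = 0.059 and 0.0602). Non-responders had fewer on Days 9, 17 and 24 than on Day 4 (adjusted p = 0.0409, 0.0231 and 0.0409 by permutation). The call of Day 9 was lost without any one of 13 mice (adjusted p up to 0.0756 by permutation), or 12 with the other tests held. That of Day 17 was lost without NR19 (adjusted p = 0.0524 by permutation), but not with the other tests held. The call of Day 24 was lost without any one of 14 mice (adjusted p up to 0.0928 by permutation), or 11 with the other tests held. With the mouse as a block, it was lost as well (adjusted p = 0.0601). Without the Day 24 library of NR29, in which 18 members were detected, it was also lost (-3.62 members, adjusted p = 0.0724 by permutation).

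At equal depth most of this difference was gone. Every library was reduced to the 360 Ighv counts of the second lowest library by the expected number of members in a random draw, and NR29 on Day 24 was left out. The group medians then lay between 73.1 members (responders, Day 24) and 76.0 (responders, Day 17). The differences between responders and non-responders were -0.84 on Day 4 and -2.55 on Day 9 (adjusted p = 0.407 and 0.0844 by permutation), and those of non-responders from Day 4 were between 0.07 and 0.47. On Day 24 responders had 1.8 fewer members at equal depth (73.4 ± 1.76 (SD, n = 15) against 75.2 ± 1.79 (n = 29), adjusted p = 0.0223 by permutation). This reduction was chosen after the data had been seen.

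**Figure D4:**
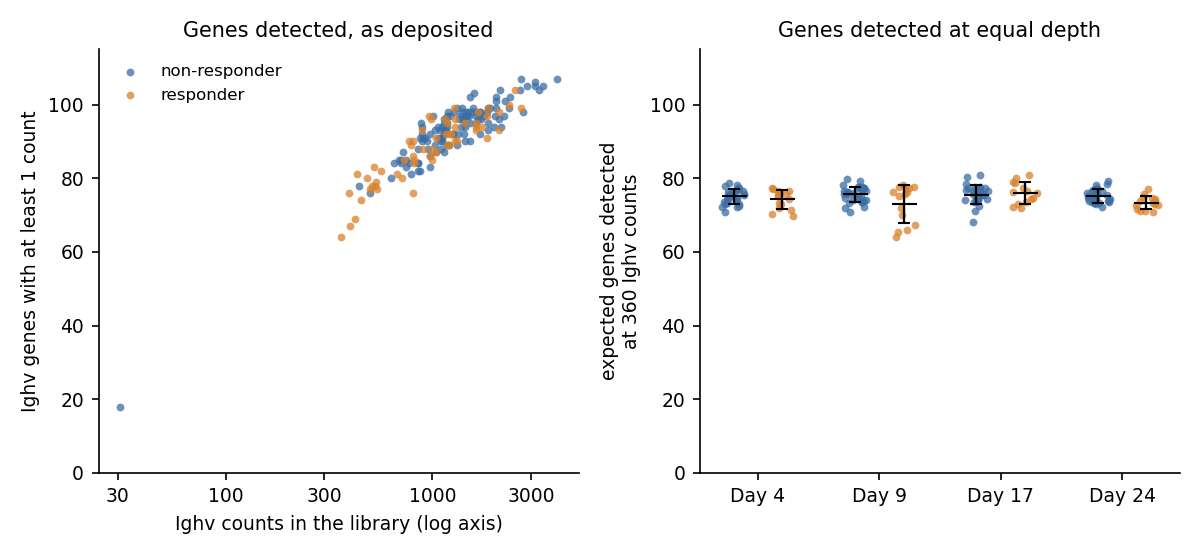
Left, the number of Ighv genes with at least 1 count (y axis) against the Ighv counts of the library (log x axis). Right, the expected number at 360 Ighv counts by day, with mean and SD in black and NR29 on Day 24 left out. On the left, NR29 on Day 24 lies apart at 31 counts and 18 genes and the other libraries climb from 64 genes at 360 counts to 107 at most, whereas the group medians on the right lie between 73.1 and 76.0.

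Use of the V genes was even in all groups. Pielou evenness is the Shannon entropy of the Ighv counts divided by the natural logarithm of the number of members detected, and reaches 1 when all detected genes are used alike. Its mean was 0.892 ± 0.01 (SD, n = 29) on Day 4, 0.897 ± 0.0108 on Day 9, 0.898 ± 0.00858 on Day 17 and 0.896 ± 0.0145 on Day 24 in non-responders (n = 30 each). In responders it was 0.90 ± 0.00702 on Day 4, 0.907 ± 0.018 on Day 9 (n = 15 each), 0.905 ± 0.00702 on Day 17 (n = 14) and 0.895 ± 0.00902 on Day 24 (n = 15). Responders were higher by 0.00774 on Day 4 and by 0.00694 on Day 17 (adjusted p = 0.0409 for both, by permutation). The call of Day 4 was lost without any one of 15 mice (adjusted p up to 0.079 by permutation), or 8 with the other tests held. That of Day 17 was lost without any one of 14 of the mice with a library of that day (adjusted p up to 0.0733 by permutation), or 10 with the other tests held. Both calls were lost with the response permuted within tag series (0.00705 and 0.0059, adjusted p = 0.103 and 0.123). On Day 9 the difference was 0.00953 (adjusted p = 0.0858 by permutation), and without R7 it was 0.0135 (adjusted p = 0.00341). Among 3-digit mice the difference on Day 9 was 0.0153 (4 responders and 23 non-responders, exact permutation p = 0.00057, adjusted p = 0.012 over 21 tests), and among 4-digit mice, which include R7, it was 0.00379 (exact permutation p = 0.711). The index moved with depth: its median was 0.908 in the fourth of libraries with the fewest Ighv counts and 0.892 in the fourth with the most. With all libraries thinned to 360 Ighv counts, the differences on Day 4 and Day 17 were -0.000534 and 0.00282 (adjusted p = 0.923 and 0.364 by permutation). On Day 9 the thinned means were 0.9176 ± 0.0153 (SD) in responders and 0.9166 ± 0.00661 in non-responders. The effective number of genes, the exponential of the entropy, had group medians between 55.4 (responders, Day 9) and 59.9 (non-responders, Day 4), and its difference between responders and non-responders on Day 4 was -1.92 (adjusted p = 0.156 by permutation).

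For each member with at least 5 counts per library on average, the spread of its use over the libraries of a group was set against counting error, as the chi-square statistic divided by its degrees of freedom, where 1 is counting error alone. The median of this ratio over members lay between 1.56 and 1.71 in the 8 groups. The highest ratio was that of Ighv1-72 on Day 9 of responders (21.0), followed by Ighv1-72 on Day 24 of non-responders (6.38) and Ighv9-1 on Day 9 of responders (5.49). In all other groups the highest ratio of any member was at most 4.86. The 3 highest ratios each came from 1 library. Without R7, Ighv1-72 was at 1.62 and Ighv9-1 at 1.57 on Day 9 of responders, and without NR26, Ighv1-72 was at 1.83 on Day 24 of non-responders. The 4.86 of Ighv4-1 on Day 24 of responders also came from R7, without which it was 0.841. Without R7, Ighv1-85 went from 3.53 to 0.383 on Day 4 of responders. In the remaining groups the highest ratio stayed between 2.38 (non-responders, Day 4) and 3.83 (non-responders, Day 9) without its top library. These values without 1 library were computed after the data had been seen. Libraries of the same mouse on different days shared a median of 75.6% to 83.7% of their V gene use, and libraries of different mice 75.8% to 83.5%.

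In mouse R7 on Day 9 Ighv1-72 took the highest share of any member in any library. It had 150 of the 806 Ighv counts of that library, or 18.6% (95% Wilson interval 16.1% to 21.4%, counting error only). In the same mouse it had 3.10% on Day 4, 5.04% on Day 17 and 5.74% on Day 24. The other 14 responders of Day 9 lay between 3.11% and 6.23%, and no library of any other mouse reached this value. R7 had the lowest evenness of responders on Day 9, 0.852, and 0.913 when Ighv1-72 was left out of the calculation. Ighv1-62-3, which shares 220 bases with it, had 0 counts in this library. NR26 had 12.5% of Ighv1-72 on Day 24 (189 of 1514 counts, interval 10.9% to 14.2%), after 6.04%, 4.89% and 2.95% on Days 4, 9 and 17. R6 had 8.86% on Day 17 (45 of 508 counts, interval 6.69% to 11.6%), after 4.01% and 3.41%, and 6.04% on Day 24. Each of these values stood above the other days of its mouse, and these mice were chosen for it. Over 22076 pairs of a library and a member in 177 libraries, 12 had a use at least 2 times that of their group with at least 20 counts above it, and 2 had 3 times or more. These were Ighv1-72 in R7 on Day 9, at 3.43 times its group, and Ighv1-36 in NR24 on Day 4, at 9.37 times (27 of 1347 counts, or 2.00%).

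**Figure D5:**
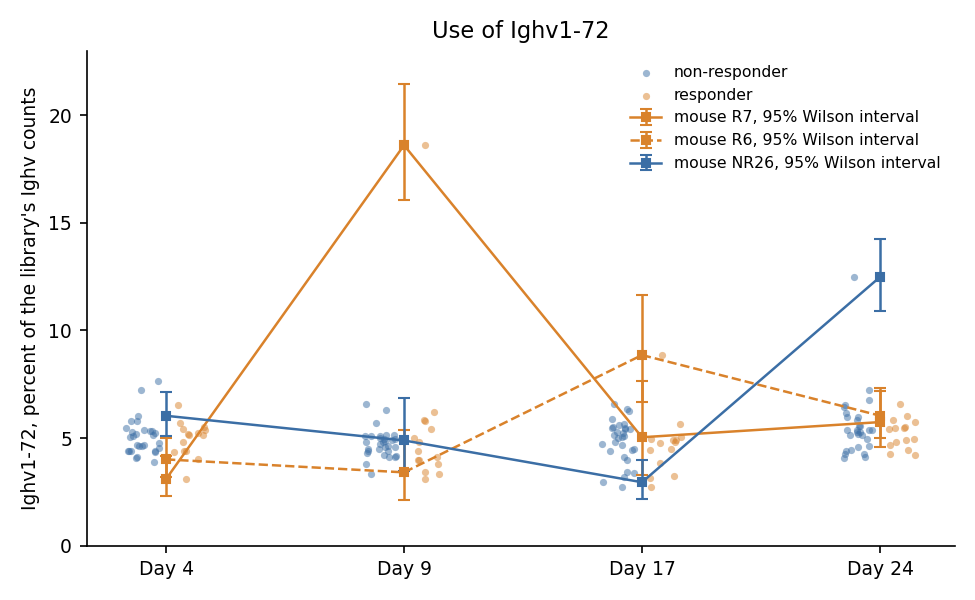
Ighv1-72 as a percent of each library's Ighv counts on the y axis, by day. Dots are libraries (NR29 on Day 24 left out), and squares joined by lines repeat the values of R7, R6 and NR26 with 95% Wilson intervals. R7 reaches 18.6% on Day 9 and NR26 12.5% on Day 24, above every other library of their days.

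The genes of the same pathway did not all move with the V genes. Of the 8 heavy constant genes, which set the isotype, Ighm fell in 5 of the 6 comparisons with Day 4 and the switched isotypes Ighg1, Ighg2b and Igha rose in all 6. Ighm, the constant gene of naive B cells, was at 0.715-fold on Day 9, 0.726-fold on Day 17 and 0.762-fold on Day 24 of non-responders (edgeR adjusted p of 5.68e-13, 1.69e-11 and 8.04e-09). In responders it fell to 0.683-fold on Day 9 and 0.715-fold on Day 17, and on Day 24 it was at 0.896-fold (edgeR adjusted p = 0.189). Ighg1 rose to 2.24-fold, 5.22-fold and 5.66-fold in non-responders and to 2.75-fold, 5.28-fold and 4.90-fold in responders (edgeR adjusted p of at most 0.000435). Ighg2b rose to 3.33-fold and 2.41-fold and Igha to 2.22-fold and 1.95-fold by Day 24 in non-responders and responders. Of the 7 tested, 5 were called higher on each later day in non-responders, beside 23.3%, 21.9% and 23.8% of all genes called higher. In responders 3, 4 and 5 were called higher, beside 13.5%, 12.2% and 7.44%. The median number of Ighv counts per 100 heavy constant counts lay between 5.07 (non-responders, Day 9) and 6.88 (responders, Day 17).

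The counts of the next lists on Day 9 stand beside 50.8% of all genes called and 27.5% called lower in non-responders, and 27.7% and 14.2% in responders, and nothing is read from a count near these. Igkc, the kappa constant gene, fell to 0.715-fold on Day 9 of non-responders and to 0.671-fold in responders (edgeR adjusted p = 1.03e-09 and 7.57e-06), and 3 of 4 and 2 of 4 genes of the list were called lower. Of the 10 mature B cell markers, 10 were called lower on Day 9 of non-responders and 6 of responders, with median log2 changes of -0.24 and -0.22 beside -0.55 and -0.51 of the V genes tested. On Day 24 of responders 2 were called higher and 1 lower, beside 17.4% of all genes called and 9.94% called lower. Of the plasma cell markers, Jchain, which links IgM and IgA into multimers, rose to 2.51-fold in non-responders and 2.18-fold in responders on Day 24 (edgeR adjusted p = 4.32e-14 and 0.000563). It was the only one of the 9 tested that was called higher on Day 24 of non-responders, where Slamf7 was called lower (0.92-fold, edgeR adjusted p = 0.0316), and in responders Irf4 was the other of 8 called higher (1.14-fold, adjusted p = 0.0368). Over that list of 10, 9 were tested in non-responders and 3 were called higher and 2 lower on Day 9. On Day 17, Mzb1, Irf4, Sdc1 and Slamf7 were called lower in both groups (0.84-fold, 0.896-fold, 0.672-fold and 0.818-fold in non-responders), whereas Jchain was called higher in both and Xbp1 in non-responders (1.22-fold). Of all genes on Day 17, 46.1% were called in non-responders (24.2% lower) and 25.6% in responders (13.4% lower). On Day 24 of non-responders 48.7% were called (24.8% lower). The list of receptor signalling genes had 6 of 10 called lower and 2 higher on Day 9 of non-responders and 5 of 10 lower in responders, and the list of V gene transcription factors 6 lower and 1 higher, and 3 lower and 1 higher. Of 6 genes of class switching and hypermutation, 5 were tested and 5 were called lower on Day 9 of non-responders and 2 in responders.

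Markers of cells other than B cells were also called on the later days. On Day 9 of non-responders all 6 T cell markers were called lower (median log2 change -0.58), all 5 neutrophil and all 5 monocyte markers were called higher (1.08 and 0.69). In responders these were 6 of 6, 3 of 5 and 3 of 5. Of the 4 platelet markers, 4 were called lower on Day 9 of non-responders and 1 of responders. On Day 17 of non-responders 6 T cell markers were called lower and 5 neutrophil and 3 monocyte markers higher, and in responders 5 were lower and 5 and 1 higher, with 1 monocyte marker lower. No platelet marker was called on Day 17 in either group. The share of all genes called on Day 17 was 46.1% in non-responders (24.2% lower) and 25.6% in responders (13.4% lower). On Day 24 of non-responders 6 T cell, 4 platelet and 1 monocyte markers were called lower and 3 neutrophil and 2 monocyte markers higher. On Day 24 of responders 5 T cell, 2 platelet and 1 monocyte markers were called lower and none of these lists had a member called higher. The share of all genes called on Day 24 was 48.7% in non-responders (24.8% lower) and 17.4% in responders (9.94% lower). Of the 3 red cell markers tested, 2, 2 and 3 were called higher on the 3 days in non-responders and none in responders. The part of the other cells in the fall of the V genes was not tested. Relative to the mature B cell markers, the change of the V genes on Day 9 was -0.20 on the log2 scale in non-responders (adjusted p = 0.00117 by permutation) and -0.17 in responders (adjusted p = 0.0845 by permutation). On that scale the change of non-responders was -0.09 on Day 17 (adjusted p = 0.278 by permutation) and -0.18 on Day 24 (adjusted p = 0.00247). That of responders was 0.03 on Day 17 (adjusted p = 0.882 by permutation) and -0.28 on Day 24 (adjusted p = 0.00117). Relative to the heavy constant genes, responders were at -0.10 on Day 9 (adjusted p = 0.249 by permutation), 0.08 on Day 17 (adjusted p = 0.582) and -0.25 on Day 24 (adjusted p = 0.00039). Non-responders were at -0.16 on Day 9 (adjusted p = 0.000975 by permutation), -0.02 on Day 17 (adjusted p = 0.798) and -0.14 on Day 24 (adjusted p = 0.00429).

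Over 12219 other genes with a mean of at least 1 CPM, likeness was the mean of the Spearman correlations within the 8 groups of 14 to 30 libraries. Igkc came first with 0.912, followed by Ly6d (0.883), Cd79a (0.864), Ighm (0.862) and Gga2 (0.862). Cd79a is a subunit of the B cell receptor. The correlation of Igkc lay between 0.879 and 0.936 in single groups. Ighg1 had a mean of 0.249 with a range of -0.283 to 0.561, and Jchain 0.509. All of these levels come from the same libraries, so the values are a description.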

How the data were processed

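Polyadenylated RNA of retro-orbital whole blood, collected in TRIzol, was sequenced with the SMARTer kit. The submitters' processing notes name mm10 and STAR, and the counting tool is not given in the sources used here. The authors deposited estimated counts per gene, which need not be whole (3.02% of the Ighv values were not exactly whole) and were rounded for the count models. They also deposited a table of TPM, which was used for levels per length. That table had 55341 rows, against 55450 in the count table, and 183 symbols for the 185 Ighv members. Gene types and positions came from GENCODE M21, matched by gene ID. The members and gene lists were chosen with earlier results of these data known.

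The summed level was Ighv CPM computed over the counts outside 12 haemoglobin genes. Its log2 value, the number of members with at least 1 count, and Pielou evenness were compared by two-sided permutation of the mean difference (100000 resamples; 20000 when leaving out mice), with Benjamini-Hochberg adjustment over 39 tests. Comparisons within tag series were exact. Single genes were tested with edgeR 4.0.16 (quasi-likelihood, TMM, filterByExpr), adjusted over all genes, with DESeq2 1.42.0 as an alternative. Response calls needed an adjusted p of at most 0.05 and 1.5-fold, and calls over time the adjusted p alone. In each comparison over time the 3 members with the smallest p were named. Libraries of the same mouse are paired by its ear tag. Intervals cover counting error only.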

Additional observations from a re-analysis of the deposited data

Results flagged for a closer look

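The change of the summed Ighv level from Day 4 to Day 17 differed between responders and non-responders among mice with 3-digit ear tags. The difference of the mean log2 changes was 0.981 (exact permutation p = 0.00261, adjusted p = 0.0274 over 21 tests), from a mean change of 0.547 in 4 responders and -0.434 in 22 non-responders. Among mice with 4-digit tags the same difference was 0.04 (exact permutation p = 0.841). Over all mice it was 0.19 (adjusted p = 0.426 by permutation). Whether the difference itself differs between the series was not tested. In the Day 17 libraries of R1 and R2, counts outside haemoglobin genes were 4535338, the lowest of all libraries, and 5331137. The values within series were computed on the scale outside haemoglobin genes only.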

How the results depend on the processing

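Over 23 settings, 278 alternative values were computed. Of these, 224 kept their side of the threshold or, for counts of members, stayed within 1.5 times. These 224 include 44 that changed sign where neither value was called. Another 25 lost the call, 7 gained one, and 12 changed sign where a call stood in either. The last 10 were counts that moved by over 1.5 times. The cause of these changes was not tested, other than that fewer counts were used at equal depth. The settings at 360 counts and those relative to B cell markers or heavy constant genes were chosen after seeing the data.

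For the log2 summed level, TMM scaling gave responders minus non-responders 0.0692 on Day 4 and 0.0788 on Day 9, and responders against Day 4 -0.353 on Day 17 and -0.289 on Day 24, both called. Relative to mature B cell markers these were 0.136 and 0.167, with -0.168 for responders on Day 9, -0.276 on Day 24 and -0.0879 for non-responders on Day 17. Relative to heavy constant genes they were 0.116, 0.174, -0.0972, -0.251 and -0.0234. Responders on Day 9 lost the call relative to all counts (-0.510) and in summed TPM (-0.517), and the difference of changes on Day 24 gained it in TPM (0.878). Permuted within tag series, the response differences lost the call at -0.297 and -0.210 for the level, -6.87 and -7.80 for members detected (Days 4 and 9), and 0.00705 and 0.00590 for evenness (Days 4 and 17).

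For members detected, reduction to 31 counts gave -0.0680 and -0.139 between responders and non-responders on Days 4 and 9, and -0.0548, -0.0551 and -0.285 for non-responders on Days 9, 17 and 24. Reduction to 360 counts gave -0.836, -2.55 and, on Day 24, -1.80 between the groups, and 0.469, 0.386 and 0.0653 for non-responders. Requiring 10 counts made the difference of changes on Day 24 14.2, which was called. With the mouse as a block, non-responders on Day 24 were at -6.10 (adjusted p = 0.0601 by permutation), and without NR29's Day 24 library at -3.62. The block changed no other call of the permutation tests. Gene by gene in responders, it called 24 of 50 members lower on Day 9, against 20 without it. On Day 17 it called 11 of 50 lower, against 10. Of 12561 genes, 3852 and 3415 were called with the block, against 3476 and 3210. For evenness on Days 4 and 17, the inverse Simpson index gave -0.855 and 0.859, the effective number -1.92 and 0.284, thinning -0.000534 and 0.00282, and TPM on Day 17 0.00501.

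Counts of called members with 1.5-fold required were 10, 6 and 4 in responders (beside 887, 565 and 396 of 12561 genes) and 21, 5 and 1 in non-responders (beside 1286, 645 and 784 of 13009 genes) on Days 9, 17 and 24. Between the response groups 1 of 48 was called by p alone on Day 24 (beside 1066 of 12469 genes). On Day 4, 1 of 61 was called with the series as covariate (beside 621 of 12620 genes). With every gene of at least 1 count, 1 of 133 was called on Day 4 (beside 599 of 25571 genes). That filter gave 3 of 132 for responders on Day 24 (beside 1569 of 26091 genes).

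Leaving out 1 mouse in turn, with the adjustment repeated over all tests, the response difference of the level ranged from -0.359 to -0.244 on Day 4 (call lost without R8) and from -0.360 to -0.227 on Day 9 (lost without R3, R5, R6, R8, R10, R12, R13, R14, R15, NR1, NR3, NR4, NR5, NR6, NR15, NR18, NR19 or NR30). That of members detected ranged from -7.79 to -5.93 on Day 4 (lost without R8). Responders on Day 9 ranged from -9.14 to -5.64 members (called without R9). Non-responders ranged from -5.23 to -3.90 on Day 9 (lost without NR3, NR4, NR5, NR7, NR8, NR11, NR19, NR20, NR21, NR24, NR26, NR28 or NR30), from -5.67 to -4.26 on Day 17 (lost without NR19) and from -6.64 to -3.58 on Day 24 (lost without NR4, NR5, NR7, NR9, NR11, NR14, NR15, NR19, NR20, NR21, NR24, NR28, NR29 or NR30). Evenness between the groups ranged from 0.00690 to 0.00858 on Day 4 (lost without R1, R2, R3, R7, R8, R10, R11, NR3, NR4, NR5, NR7, NR15, NR19, NR20 or NR24), from 0.00783 to 0.0135 on Day 9 (called without R7 or NR26) and from 0.00612 to 0.00772 on Day 17 (lost without R1, R7, R10, R11, R12, R13, R14, R15, NR4, NR5, NR13, NR14, NR15 or NR30). Over time it ranged from 0.00460 to 0.0110 on Day 9 of responders (called without R7) and from 0.00416 to 0.00606 on Day 17 of non-responders (called without NR17 or NR22).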

Other observations

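Ighv1-36 stood out in the Day 4 library of NR24. It had 27 of 1347 Ighv counts there, or 2.00% (95% Wilson interval 1.38% to 2.90%), 9.37 times the use in its group (0.214%). On Days 9, 17 and 24 the same mouse had 0, 0 and 1 counts of it. In the same mouse Ighv1-7 took 4.53% of Ighv counts on Day 24 (52 of 1149), after 1.26%, 1.28% and 1.07%. Ighv11-2 had the highest spread of use among members on Day 4 and Day 9 of non-responders, 3.09 and 4.60 times counting error.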
